A study of Mus musculus with 19 samples.

Results

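ERVL and ERVL-MaLR are 2 families of retrovirus-like repeats of the class LTR, the repeats framed by long terminal repeats. Their members were taken by name, as every entry in the counts of transposable elements (TE) whose family is ERVL or ERVL-MaLR and whose class is LTR. This gave 215 of the 1071 TE subfamilies listed in the series, 111 of ERVL and 104 of ERVL-MaLR. A subfamily pools the reads of all its copies across the genome, so the values below say nothing of single copies or their positions.

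The series counted RNA in 19 libraries of mouse bone-marrow cells in 6 groups, used directly after isolation. Myeloid cells carrying Cd11b, the integrin encoded by Itgam, came from animals of 4 months (Cd11b young, 4 WT and 3 MT libraries) and of 18 months (Cd11b old, 3 WT and 3 MT). LK cells, progenitors that lack lineage markers and carry the receptor Kit, came from animals of 18 months (3 WT and 3 MT). The series asks what mutant Asxl1, a chromatin regulator gene mutated in clonal hematopoiesis, does together with the EHMT methyltransferases in heterochromatin. The labels give the genotype as WT or MT, read here with the series title as wild type and Asxl1 mutant. They name no allele, promoter, Cre line, sex or batch, and do not say whether replicates are separate animals, so the p-values measure the spread between these libraries, which may be technical.

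ERVL elements carry an internal part with retroviral genes between 2 LTRs, the regulatory ends. The mouse member is MERVL, whose internal part is MERVL-int and whose LTR is MT2_Mm. MERVL is known for its burst of transcription in the early embryo, when MT2_Mm serves as a promoter, and for its repression in other cells by histone methylation and deacetylation, in which Ehmt1, Ehmt2, Kdm1a and Trim28 take part. MaLR elements are non-autonomous relatives that lack the genes needed to copy themselves. Their ORR1 and MT groups are rodent repeats, with MT well known from oocyte transcripts, while MLT1 elements are far older and shared by mammals.

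By name, the ERVL family held 8 subfamilies of MERVL and MT2, 10 of MLT2, 57 named LTR with a number and 36 others. The ERVL-MaLR family held 19 of MT, 29 of ORR1, 54 of MLT1 and 2 others. Internal parts made up 15 of the 111 ERVL subfamilies and 52 of the 104 ERVL-MaLR subfamilies. The young, old and LK libraries listed 214, 206 and 206 members, of which 5, 11 and 17 had 3 counts or fewer in every library. After the low-count filter 190, 167 and 159 members were tested in these sets.

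Levels are counts scaled to 1000000 gene counts of the same library (CPM). They are not corrected for length or copy number, which the files do not give, so levels are compared between groups and not between subfamilies. Gene counts per library ran from 26251822 to 68260809. ERVL counts per library ran from 11864 to 77415 and ERVL-MaLR counts from 52630 to 326023. The sorting markers followed the labels, with Itgam at 1478 to 2827 CPM in Cd11b libraries against 57.5 to 101.4 in LK libraries. Kit was at 50.1 to 114.3 CPM in Cd11b libraries against 201.9 to 279.5 in LK libraries.

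Several libraries stood apart. Across genes, replicates 2 and 3 of each 18-month group were far more alike than either was to replicate 1. The squared difference over its sampling variance averaged 3.02 to 6.74 per gene between replicates 2 and 3 and 14.6 to 47.6 between replicate 1 and the others, where sampling noise alone gives about 1. In LK cells replicate 1 of WT and replicate 1 of MT differed by 16.5 on this measure, less than either differed from the other libraries of its own group (19.7 to 26.7). Young MT replicate 3 and young WT replicate 4 had sex-linked counts that were the reverse of the other young libraries. On the same measure they differed by 8.99 from each other, and by 29.5 to 76.3 from the other libraries of their own groups. Counts of calls that use 18-month groups are therefore given also with replicates 2 and 3 summed to 1 sample.

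The summed level of each family set the 3 cell sets apart and, for ERVL-MaLR in LK cells, the genotypes as well. The ERVL sum was 1853 to 2949 CPM in the 7 young libraries, 518.9 to 622.5 in the 6 old libraries and 326.5 to 372.5 in the 6 LK libraries. The ERVL-MaLR sum was 7749 to 12419, 2202 to 2422 and 1617 to 1803 CPM in the same order. No young library overlapped an old one, and no old library overlapped an LK one, in either family.

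**Figure D1:**
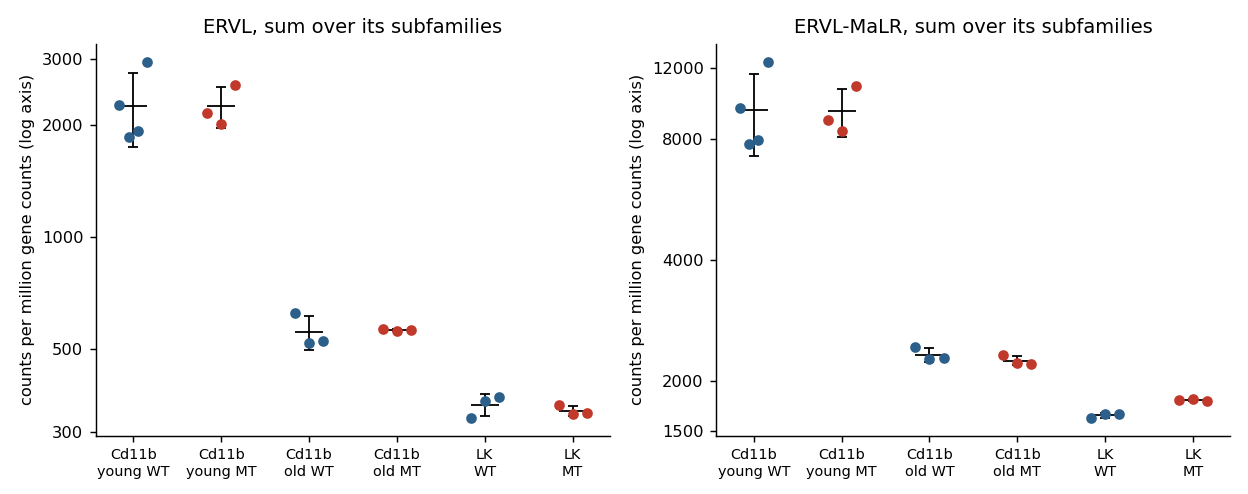
Summed CPM of the 2 families, on a log axis, for each library (points) of the 6 groups, with the mean and SD as a bar (blue WT, red MT). The young libraries lie highest, and only for ERVL-MaLR in LK cells do the MT libraries (1785 to 1803) lie clear of the WT libraries (1617 to 1655).

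In LK cells the ERVL-MaLR sum was 1617, 1655 and 1652 CPM in WT replicates 1 to 3 and 1793, 1803 and 1785 CPM in the MT replicates. Every MT library was above every WT library, and the mean was 9.29% higher in MT. The ERVL-MaLR share of all TE counts moved the same way, from 5.13% to 5.35% in WT to 5.52% to 5.595% in MT. The ERVL sum was 326.5, 363.0 and 372.5 CPM in WT and 353.4, 333.7 and 337.6 CPM in MT, so the groups overlapped. The ERVK family, given for comparison, was at 5069 to 5431 CPM in WT and lower in every MT library, at 4670 to 4862 CPM. ERV1 was lower in every MT library as well, at 3515 to 4229 CPM in WT and 3188 to 3324 in MT. The L1 family was higher in every MT library, at 6377 to 6801 CPM in WT and 7440 to 7684 in MT. All TE counts overlapped, at 30193 to 32229 CPM in WT and 31905 to 32675 in MT. No test was made on these sums.

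The excess of ERVL-MaLR in LK MT cells was spread over its name groups. MT subfamilies summed to 795.3 to 818.0 CPM in WT and 885.6 to 896.1 in MT. ORR1 subfamilies summed to 696.3 to 713.9 CPM in WT and 752.1 to 771.5 in MT. MLT1 subfamilies summed to 121.0 to 127.5 CPM in WT and 131.6 to 132.2 in MT. For all 3 groups the MT and WT libraries did not overlap. The sum of the ERVL internal parts went the other way, at 71.1 to 83.0 CPM in WT and 65.8 to 67.8 CPM in MT. Most of these parts did not fall one by one. Of 9 tested, 6 had a log2 fold change above 0, with a median of 0.15. Only 1 was called, MERVL-int, which was lower.

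The same MT libraries differed from WT in other ways. Markers of neutrophils summed to 698 to 1279 CPM in LK WT and 1449 to 4515 in LK MT libraries, with 10 of 10 markers higher on average in MT, 4 of them without overlap and none at 0. LK MT replicate 1, at 1449 CPM, was close to LK WT replicate 1, at 1279 CPM. Monocyte markers summed to 866.4 to 978.4 CPM in WT and 1053 to 1157 CPM in MT, but of the 6 listed of 7, 1 had every MT library above every WT library and 3 had every MT library below. Progenitor markers summed to 16421 to 17608 CPM in WT and 18125 to 20780 CPM in MT, and went both ways as well, with 4 of 10 above and 3 of 10 below without overlap. Erythroid markers summed to 2408 to 2474 CPM in WT and 2032 to 2249 CPM in MT, with 2 of 10 not listed and 4 of the 8 listed lower in MT without overlap. Sex-linked genes summed to 208.3 to 244.0 CPM in WT and 180.0 to 184.6 CPM in MT, with 4 of 5 lower in MT without overlap. A list of 7 nuclear or non-polyadenylated RNAs, read as a sign of library type, summed to 506.9 to 540.1 CPM in WT and 680.3 to 711.2 CPM in MT. Malat1, a nuclear RNA of that list, was at 394.4 to 425.4 CPM in WT and 528.6 to 585.5 CPM in MT. Over all 14130 genes tested in LK cells, 13.9% were called higher and 15.9% lower in MT. The share of all genes without overlap was not counted, so the marker numbers without overlap have no background. The part of these differences in the LK results was not tested. In such bulk samples fewer cells of a type and less RNA per cell cannot be told apart.

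Subfamily by subfamily, LK cells were the set in which members of both families passed the test between genotypes. The call was an adjusted p under 0.05 in the quasi-likelihood test of edgeR over all TE subfamilies. Of 159 members tested, 29 were called, 20 higher and 9 lower in MT. Among all 814 TE subfamilies tested, 163 were called, which is 20% (15.2% higher, 4.79% lower). The 84 ERVL-MaLR subfamilies had 16 higher and 3 lower, 22.6% in all, and the 75 ERVL subfamilies had 4 higher and 6 lower, 13.3% in all. The median log2 fold change was 0.10 for ERVL-MaLR and 0.04 for ERVL, against 0.08 for all TE subfamilies tested. The ERVL-MaLR share was near that of TE subfamilies at large and the ERVL share was below it, a difference that was not tested.

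These counts depend on scaling and on single libraries. With scaling to TE counts in place of gene counts, 6 members were called higher and 12 lower, and the medians were 0.03 for ERVL-MaLR and -0.03 for ERVL. Of all 818 TE subfamilies then tested, 60 were higher and 56 lower, with a median of 0.01. With gene library totals and no TMM factors 12 members were higher and 9 lower, against 95 and 41 of all 813 TE subfamilies. With replicates 2 and 3 summed, 1 member was called. Without LK WT replicate 1 there were 48 calls, and without MT replicate 3 there were 10. Without MT replicate 2, WT replicate 2 or WT replicate 3 there were 5 each. The shares over all TE subfamilies in the fits with summed or left-out libraries are not given here.

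**Figure D2:**
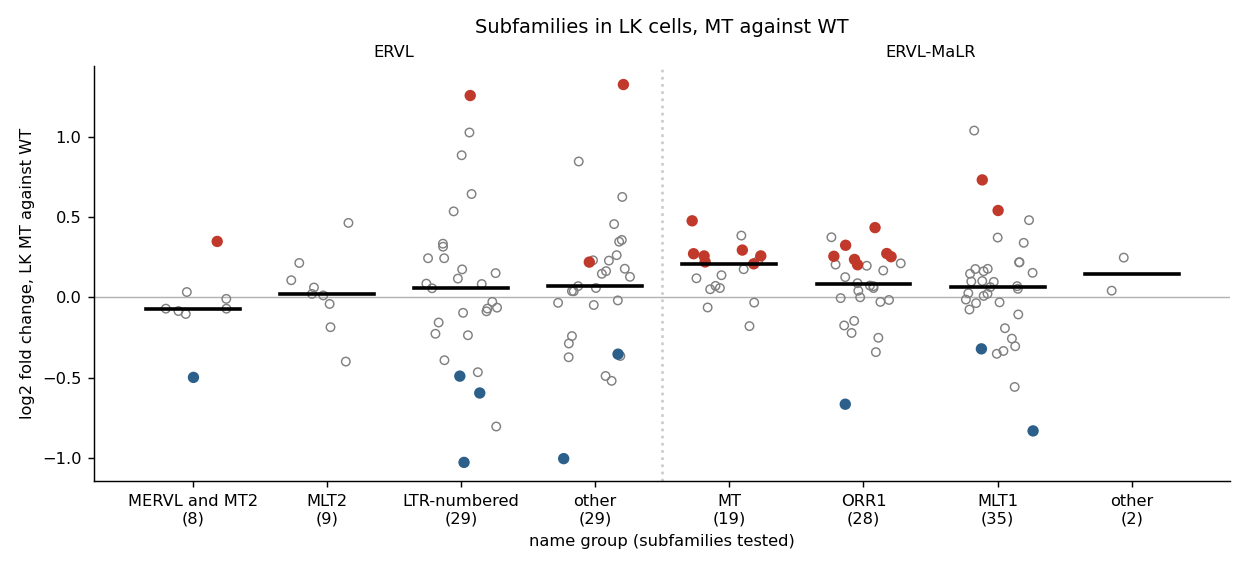
Log2 fold change of MT against WT in LK cells for each of the 159 subfamilies tested (points), by name group, with the number tested in parentheses and the median as a black line. Filled points were called (red higher, blue lower). In the MT group 7 of 19 were called higher and none lower, against 15.2% higher and 4.79% lower over all TE subfamilies.

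Among ERVL subfamilies, MERVL-int fell in LK MT cells. The MERVL internal part was at 23.4, 31.1 and 33.9 CPM in WT replicates 1 to 3 and at 20.2, 19.9 and 20.7 CPM in the MT replicates. All 3 MT libraries were below all WT libraries, with WT replicate 1 nearest to them. The log2 fold change was -0.50 ± 0.10 (SE; adjusted p = 0.00276). It stayed called in 12 of 14 alternatives, with values of -0.66 to -0.40, and missed the threshold with replicates 2 and 3 summed (adjusted p = 0.097) and in a fit of all 19 libraries (adjusted p = 0.082).

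Its LTR partner was not called. MT2_Mm was at 16.5, 14.9 and 14.1 CPM in WT and 16.5, 12.6 and 12.4 CPM in MT, which overlap, with a log2 fold change of -0.10 ± 0.10 (adjusted p = 0.523). A second internal part, MERVL_2A-int, was at 34.0 to 34.8 CPM in WT and 30.5 to 33.3 CPM in MT (log2 fold change -0.07 ± 0.070, adjusted p = 0.523). The related LTRs MT2A and MT2B were at -0.07 and -0.01 and were not called. MT2C_Mm rose, from 10.5 to 11.2 CPM in WT to 12.9 to 14.0 CPM in MT (log2 fold change 0.35, adjusted p = 0.00934), and was called in 8 of 14 alternatives. Of the 8 subfamilies of MERVL and MT2, 1 rose, 1 fell and 6 were not called. Their median was -0.07, against 0.08 for all TE subfamilies tested.

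LTR50, listed as an LTR without an internal part, had the largest rise of the ERVL subfamilies that the naming rule covers. It was at 0.59, 0.80 and 0.63 CPM in LK WT (28, 41 and 20 counts) and at 1.36, 1.51 and 1.85 CPM in LK MT (65, 79 and 111 counts). The groups did not overlap. The log2 fold change was 1.26 ± 0.21 (adjusted p = 0.000532), and it was called in 14 of 14 alternatives, with values of 1.11 to 1.41. It was the 1 member called with replicates 2 and 3 summed (adjusted p = 0.025).

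The other ERVL subfamilies called higher were RMER15, at 43.0 to 43.6 CPM in WT and 46.0 to 51.6 CPM in MT (log2 fold change 0.22, adjusted p = 0.0264, called in 5 of 14 alternatives), and MER68B. MER68B is outside the naming rule and was picked after its values were seen. It rests on 9, 7 and 2 counts in WT and 19, 16 and 19 counts in MT. Called lower beside MERVL-int were LTR33B (log2 fold change -1.03), MER54B (-1.01), LTR16A2 (-0.60), LTR16C (-0.49) and RLTR28 (-0.35), the last also picked after its values were seen. LTR33B rests on 30, 61 and 42 counts in WT and 32, 20 and 26 in MT. LTR16A2 was at 3.63, 5.33 and 5.31 CPM in WT and 3.54, 2.81 and 2.84 CPM in MT. In both, WT replicate 1 was close to the MT libraries. For LTR33B the genotypes overlapped, with WT replicate 1 below MT replicate 1 in CPM. LTR16A2 kept its call in 9 of 14 alternatives, LTR33B in 8, and LTR16C and MER54B in 6 each.

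Of the ERVL-MaLR subfamilies, MT elements gave 7 higher and none lower of 19 tested, with a median log2 fold change of 0.21. Over all TE subfamilies tested, 15.2% were higher and 4.79% lower, with a median of 0.08. These counts rest on scaling to gene counts. With scaling to TE counts ERVL-MaLR as a whole had 4 higher and 5 lower, and calls by name group are not given for it. MTEb-int, an internal part, was at 55.3, 46.6 and 45.1 CPM in WT and 63.2, 68.8 and 67.8 CPM in MT. The groups did not overlap, and WT replicate 1 was again the WT library nearest to MT. The log2 fold change was 0.48 (adjusted p = 0.000492), called in 12 of 14 alternatives. MTA_Mm, a young rodent LTR, was at 111.5 to 114.1 CPM in WT and 129.5 to 136.4 CPM in MT (log2 fold change 0.27, adjusted p = 0.00774). Its internal part MTA_Mm-int was at 168.2 to 185.8 CPM in WT and 200.9 to 213.6 CPM in MT (0.29, adjusted p = 0.00774). MTA_Mm and MTA_Mm-int kept their calls in 8 and 7 of 14 alternatives.

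Of the other MT elements named for their counts over all libraries, MTD and MTC did not follow. MTD was at 128.6, 148.6 and 152.6 CPM in WT and 137.4, 131.4 and 132.3 CPM in MT (log2 fold change -0.06, adjusted p = 0.593). MTC was at 67.8 to 79.5 CPM in WT and 74.9 to 79.1 CPM in MT (0.05, adjusted p = 0.678). Both overlapped between genotypes.

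ORR1 elements gave 7 higher and 1 lower of 28 tested, with a median of 0.08, against 0.08 for all TE subfamilies. ORR1A3 was at 26.2, 24.5 and 22.3 CPM in WT and 31.1, 33.3 and 31.9 CPM in MT, without overlap (log2 fold change 0.43, adjusted p = 0.000701). It was called in 12 of 14 alternatives. The rise covered the LTRs ORR1A0, ORR1A1, ORR1A2, ORR1A3, ORR1A4 and ORR1B1 with values of 0.24 to 0.43, and the internal part ORR1A0-int with 0.20. ORR1A0 kept its call in 8 of 14 alternatives, ORR1A2 in 7 and ORR1A0-int in 3, with adjusted p up to 0.471 for the last. ORR1A1, ORR1A4 and ORR1B1 are outside the naming rule and complete the list of called ORR1 LTRs. ORR1D-int fell, from 3.10, 4.73 and 5.05 CPM in WT to 3.10, 2.28 and 2.50 CPM in MT (log2 fold change -0.67, adjusted p = 0.00774), and was called in 9 of 14 alternatives.

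MLT1 elements gave 2 higher and 2 lower of 35 tested, with a median of 0.06, against 0.08 for all TE subfamilies. MLT1K rose, from 22.33, 15.35 and 16.04 CPM in WT to 26.9, 31.5 and 28.9 CPM in MT (log2 fold change 0.73, adjusted p = 0.00822), and was called in 12 of 14 alternatives. MLT1H-int was the other higher subfamily (0.54, called in 3 of 14 alternatives). MLT1E1 (-0.83, called in 7) and MLT1B (-0.32, called in 9) were lower.

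**Figure D3:**
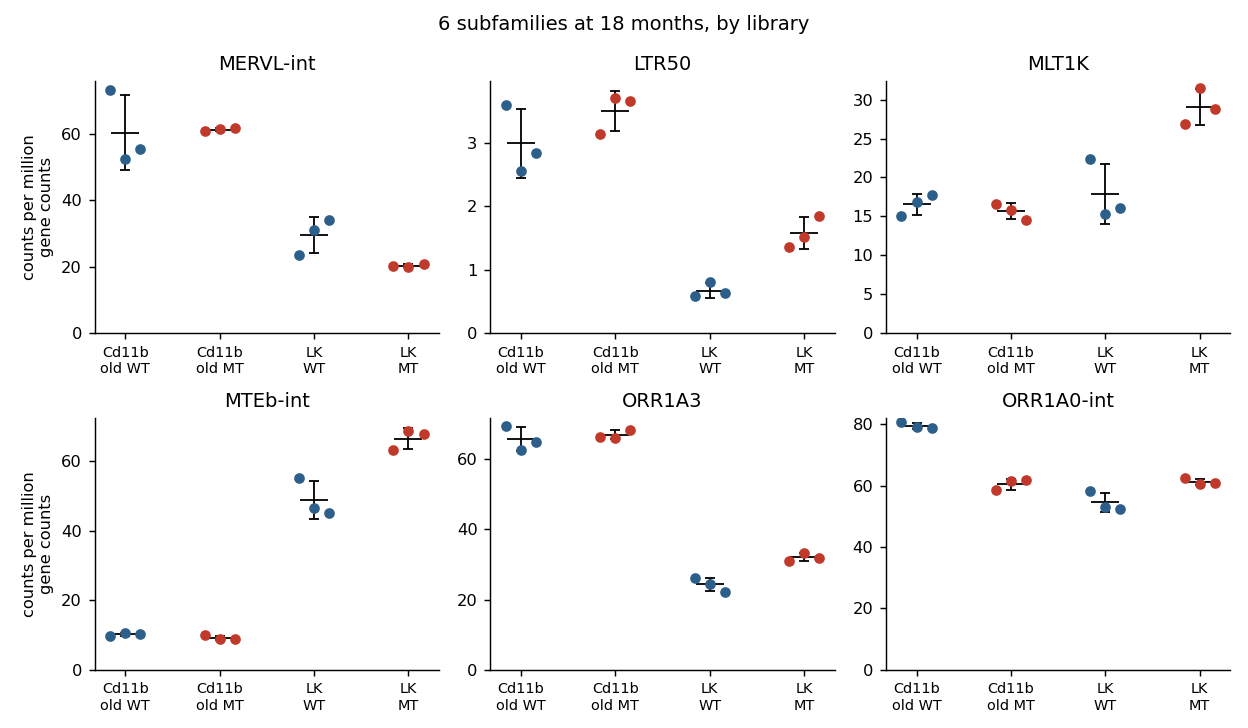
CPM of 6 subfamilies in each library (points) of the 4 groups of 18 months, with mean and SD (blue WT, red MT). In LK cells MERVL-int is lower and LTR50, MLT1K, MTEb-int and ORR1A3 are higher in every MT library; ORR1A0-int is lower in MT in old Cd11b cells (58.5 to 61.7 against 78.7 to 80.7) and higher in MT in LK cells.

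An LTR and its internal part can lie on 1 transcript, yet they did not always move together. For 29 pairs of the same name both parts were tested in LK cells. In 17 pairs both log2 fold changes were above 0, in 1 pair both were below 0, and in 11 pairs the signs differed. Both parts were called in 3 pairs, namely MTA_Mm, ORR1A0 and MTE2a. The LTR alone was called in 7 pairs, such as ORR1A3 (0.43 against 0.04 for its internal part) and ORR1B1 (0.27 against -0.22). The internal part alone was called in 3 pairs, MTEb, MTEa and MLT1H. MTE2a, MTEa and ORR1B1 were picked after their values were seen.

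The libraries were also compared by whether the genotypes overlapped. Of 96 ERVL-MaLR subfamilies listed in LK cells, 29 had every MT library above every WT library and 9 had every MT library below. Of 110 ERVL subfamilies listed these numbers were 13 and 9. The test covered only 75 of them, since the 110 include rare ones, 10 with 3 counts or fewer in every LK library. Over all TE subfamilies listed, 19.8% had every MT library above and 8.64% below. In share the ERVL numbers did not exceed these, the ERVL-MaLR numbers did, and the differences were not tested.

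In old Cd11b cells 1 member was called. ORR1A0-int was at 80.7, 79.1 and 78.7 CPM in WT and at 58.5, 61.4 and 61.7 CPM in MT. The groups are narrow and far apart. The log2 fold change was -0.41 ± 0.065 (adjusted p = 0.00709). Of 873 TE subfamilies tested, 0.458% were called, 0.229% lower. Its LTR, ORR1A0, was at 24.3 to 26.9 CPM in WT and 21.7 to 22.1 CPM in MT, also without overlap, with a log2 fold change of -0.24 ± 0.073 that did not pass (adjusted p = 0.237).

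The size of the ORR1A0-int difference held under every alternative run, from -0.43 to -0.38, while the call did not. It was lost with replicates 2 and 3 summed (adjusted p = 0.073), in the fit of all 19 libraries (adjusted p = 1.0) and without MT replicate 1, 2 or 3 (adjusted p = 0.081, 0.134 and 0.052). Without old WT replicate 1, 15 members were called, 9 higher and 6 lower, in place of 1. The share of all TE subfamilies called in that fit is not given here, so the 15 are not read as particular to these families.

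The remaining members gave no call in old Cd11b cells. Over 167 members tested, 15 had an unadjusted p under 0.05. The median log2 fold change was 0.01 for ERVL and -0.07 for ERVL-MaLR, against -0.02 for all TE subfamilies. MERVL-int was at 73.1, 52.2 and 55.4 CPM in WT and 60.8, 61.3 and 61.6 CPM in MT, a log2 fold change of 0.01 ± 0.100. Without WT replicate 1, the library with the highest level, it was 0.16 (adjusted p = 0.010). MT2_Mm was at 22.6 to 32.9 CPM in WT and 26.6 to 28.6 CPM in MT, which overlap.

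In young Cd11b cells no member was called among 190 tested, and none had an unadjusted p under 0.05 with edgeR. DESeq2 also called none. The share called among all 974 TE subfamilies was 0%. The libraries varied widely, with MERVL-int at 150.9 to 212.5 CPM in WT and 163 to 203.4 CPM in MT. The log2 fold change of MERVL-int was 0.02 ± 0.24, against a standard error of 0.10 in LK cells. With standard errors of this size, the lack of calls does not show equal levels. The medians were -0.05 for ERVL and -0.03 for ERVL-MaLR, against -0.04 for all TE subfamilies. The smallest p-values belonged to MLT1G1-int, at a log2 fold change of 0.76 ± 0.49, LTR108d_Mam (0.30 ± 0.32) and LTR16D (0.32 ± 0.40) on the higher side. On the lower side they belonged to MER74C (-0.54 ± 0.43), MLT1J-int (-0.35 ± 0.28) and HERVL74-int (-0.35 ± 0.30). Each of these 6 differences was less than 2 standard errors from 0.

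Whether the genotype difference itself varied between sets was tested as an interaction. Between young and old Cd11b cells, none of 191 members was called, 4 had an unadjusted p under 0.05, and the share called among all TE subfamilies was 0%. Between LK and old Cd11b cells at 18 months, 17 members were called higher in LK and 2 lower, of 173 tested. Over all 889 TE subfamilies 9.9% were called higher and 2.59% lower. ERVL-MaLR gave 13 of these calls, all higher, and ERVL gave 4 higher and 2 lower. With scaling to TE counts 45 of all 872 TE subfamilies were called higher and 43 lower, and of the members 7 were higher and 6 lower. With replicates 2 and 3 summed there were none, and leaving out 1 library gave 11 (without old MT replicate 3) or 12 (without old MT replicate 2) to 30 (without old WT replicate 1 or without LK WT replicate 1). The shares over all TE subfamilies in those fits are not given here.

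ORR1A0-int had the smallest p of the members in that interaction. Its genotype difference was -0.41 in old Cd11b cells and 0.20 in LK cells, a difference of 0.61 ± 0.099 (adjusted p = 0.000681). ORR1A0 went from -0.24 to 0.32 (difference 0.56 ± 0.12, adjusted p = 0.00351). MTEb-int went from -0.17 to 0.48 (0.63 ± 0.12, adjusted p = 0.00238). LTR50, at 2.55 to 3.60 CPM in old WT and 3.15 to 3.71 CPM in old MT, went from 0.20 to 1.26 (1.05 ± 0.25, adjusted p = 0.00772), and MLT1K from -0.10 to 0.73 (0.82 ± 0.17, adjusted p = 0.00438). The 2 members lower in LK were LTR33B, from 0.53 to -1.03 (difference -1.57 ± 0.38, adjusted p = 0.00883), and LTR16A2, from 0.10 to -0.60 (-0.70 ± 0.21, adjusted p = 0.0266). MERVL-int missed the threshold (difference -0.51 ± 0.18, adjusted p = 0.095), so its fall in LK cells was not shown to differ from old Cd11b cells.

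**Figure D4:**
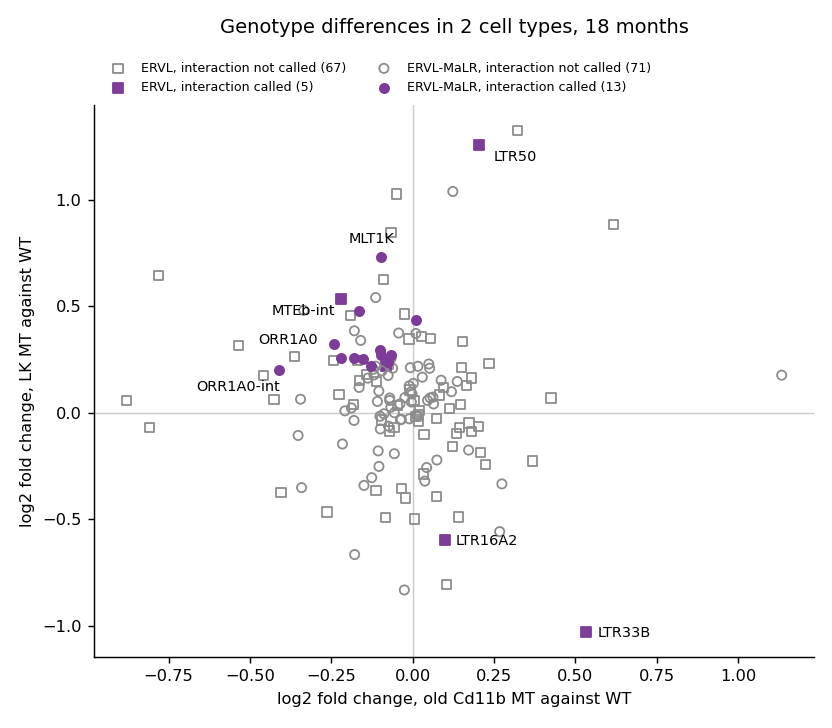
Log2 fold change of MT against WT in old Cd11b cells (x axis) and in LK cells (y axis) for the 156 members tested in both (squares ERVL, circles ERVL-MaLR), filled where the interaction was called (18 of them). ORR1A0-int and ORR1A0 lie to the left of 0 and above it, and LTR33B and LTR16A2 lie to the right of 0 and below it.

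Between ages, WT Cd11b cells of 18 months had far lower levels than those of 4 months. Of 189 members tested, 181 were called lower and 1 higher in old cells, where 89.5% of all TE subfamilies were lower and 1.98% higher. With old WT replicates 2 and 3 summed, 179 were lower and none higher. The share of all TE subfamilies called in that fit is not given here. The median log2 fold change was -2.26 for ERVL and -2.19 for ERVL-MaLR, against -2.12 for all TE subfamilies. The young libraries also held other RNA. The repeat 7SK, a small nuclear RNA without a poly(A) tail, was at 6124 to 11880 CPM in young libraries and 3.33 to 5.37 CPM in the others. The list of 7 nuclear or non-polyadenylated RNAs summed to 21569 to 28161 CPM in young libraries and 918.6 to 1098 CPM in old ones. Age and library type therefore cannot be told apart in these groups.

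Scaled to TE counts, the age contrast split into 58 members higher and 83 lower, with medians of -0.15 for ERVL and -0.13 for ERVL-MaLR. Of all 958 TE subfamilies then tested, 361 were higher and 394 lower, with a median of -0.05. The make-up of each family needs no scaling between libraries. MT2A, an LTR of the MERVL relatives, took 5.10% ± 0.20 (SD, n = 4) of ERVL counts in young WT and 12.0% ± 0.58 (SD, n = 3) in old WT cells. MERVL-int took 7.85% ± 0.47 and 10.8% ± 0.86. In ERVL-MaLR, MTA_Mm-int took 2.58% ± 0.23 in young WT and 7.68% ± 0.35 in old WT cells, while MTD took 14.3% ± 0.26 and 10.96% ± 0.26. For these 4 subfamilies no young WT library overlapped an old one.

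The 1 member called higher in old than in young WT libraries was ORR1A0-int. It was at 62.3, 63.0, 62.8 and 89.6 CPM in young WT and at 80.7, 79.1 and 78.7 CPM in old WT cells, so the groups overlapped through young WT replicate 4. The log2 fold change was 0.46 ± 0.21 (adjusted p = 0.0371). With 1 library left out, no member was called higher in old cells unless the library was young WT replicate 4. MTA_Mm-int was not called, at 210.2 to 292.7 CPM in young WT and 174.3 to 181.8 CPM in old WT (log2 fold change -0.17 ± 0.21, adjusted p = 0.447). At the other end MLT1E, an old mammalian LTR, was at 72.7 to 156.9 CPM in young WT and 1.79 to 2.73 CPM in old WT (log2 fold change -5.25 ± 0.28). MTD was at 1081 to 1789 CPM and 244.4 to 272.9 CPM (-2.14 ± 0.22).

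Between cell types, LK cells of 18-month WT animals had lower levels than Cd11b cells of the same age. Of 168 members tested, 142 were called lower and 6 higher in LK, where 81% of all TE subfamilies were lower and 5.25% higher. With replicates 2 and 3 summed, 144 were lower and 7 higher. For that fit the share of all TE subfamilies called is not given here. The median log2 fold change was -1.22 for ERVL and -1.34 for ERVL-MaLR, against -1.27 for all TE subfamilies. These levels rest on TMM factors that lay between 0.769 and 0.780 in Cd11b and between 1.28 and 1.30 in LK libraries. Without them 20 members were higher and 96 lower, with an all-TE median of -0.53. Of all 853 TE subfamilies then tested, 119 were higher and 480 lower. With scaling to TE counts 44 members were higher and 55 lower, with an all-TE median of -0.01. Of all 843 TE subfamilies then tested, 260 were higher and 277 lower.

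MTEb-int stood out among the members higher in LK cells. It was at 9.59, 10.7 and 10.2 CPM in old Cd11b WT and at 55.3, 46.6 and 45.1 CPM in LK WT (log2 fold change 1.54 ± 0.11, adjusted p = 1.07e-09). The related internal part MTE2a-int was at 4.19 to 4.25 CPM and 11.5 to 13.2 CPM (0.82 ± 0.12, adjusted p = 1.01e-05). MTEb-int reads numbered 35.3 ± 4.7 per 100 reads of its LTR in old Cd11b WT and 260 ± 38 in LK WT cells (SD, n = 3 each), so the 2 parts changed unequally. For MTA_Mm the same ratio was 51.8 ± 3.9 in young Cd11b WT (n = 4), 130 ± 4.2 in old Cd11b WT and 154 ± 8.4 in LK WT cells.

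Lower in LK cells were MT2A, from 63.1 to 71.2 CPM in old Cd11b WT to 22.4 to 25.5 CPM in LK WT (log2 fold change -2.19 ± 0.093), and MERVL-int, from 52.2 to 73.1 CPM to 23.4 to 33.9 CPM (-1.77 ± 0.14). MLT1H was at 11.7 to 16.1 CPM and 2.46 to 3.01 CPM (-3.09 ± 0.15), and LTR16E2 at 2.22 to 2.50 CPM and 0.04 to 0.13 CPM (-5.34 ± 0.28). For these 4 subfamilies the cell types did not overlap. In LK cells alone LTR16E2 did not pass the low-count filter, so its fold change rests on few LK reads.

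**Figure D5:**
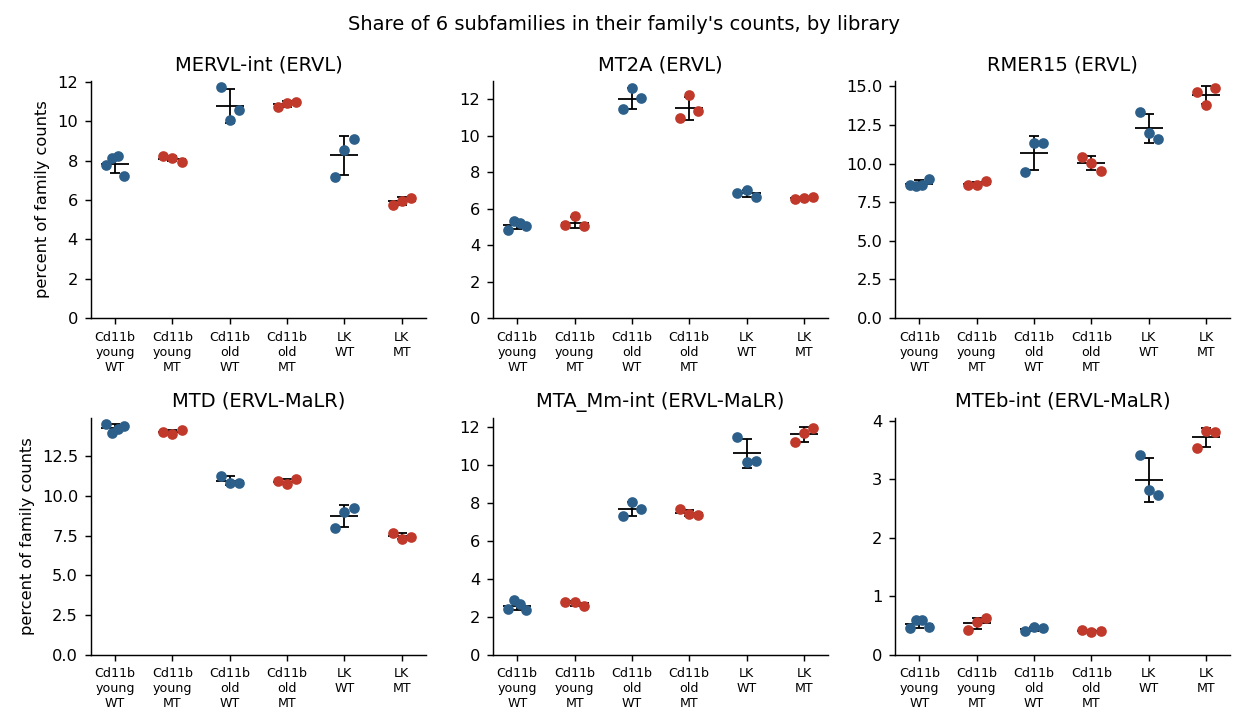
Share of 6 subfamilies in the counts of their own family, in percent, for each library (points) with mean and SD (blue WT, red MT). MTA_Mm-int goes from 2.58% in young WT to 10.6% in LK WT, MTD from 14.3% to 8.72%, and MERVL-int in LK cells is at 7.15% to 9.10% in WT and 5.73% to 6.12% in MT.

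Over the 6 groups MERVL-int averaged 174 ± 28 CPM in young WT, 181 ± 21 in young MT, 60.3 ± 11 in old WT, 61.2 ± 0.44 in old MT, 29.4 ± 5.5 in LK WT and 20.3 ± 0.38 in LK MT (SD). Neighbours in this order did not overlap between young and old cells, between old and LK cells, and between LK WT and LK MT. In LK cells WT replicate 1 lay near the MT libraries, and the WT spread was wide. Genotypes within young and within old cells overlapped. MT2_Mm followed the same order of cell sets, at 74.5 ± 18, 73.5 ± 12, 26.9 ± 5.4, 27.9 ± 1.1, 15.2 ± 1.2 and 13.9 ± 2.3 CPM, with LK WT and LK MT not apart.

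Genes tied to MERVL were read from a list of 48, of which 36 were listed and tested in each cell set. The list holds writers, readers and partners of repressive chromatin, and activators and other genes of the early embryonic programme. Of its genes 12, Zfp42, Duxf3 and Zscan4d among them, were not listed. In LK cells 17 of 36 fell in MT, 1 rose and 18 were not called. Over all 14130 genes tested 15.9% were lower and 13.9% higher. The median of the list was -0.11. With replicates 2 and 3 summed, and with the replicate block, none of the 36 was called in LK cells. There were 6 calls without MT replicate 2 or WT replicate 2, and 8 without MT replicate 3 or WT replicate 3. In young and in old Cd11b cells none of the 36 was called with edgeR or DESeq2, where 0% and 0.336% of all genes were. Without old WT replicate 1, 9 were called in old cells, 8 higher and 1 lower, and without old MT replicate 1 there was 1. The share of all genes called in fits with libraries left out is not given here.

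Ehmt1, which encodes the methyltransferase GLP, was at 73.4 to 85.0 CPM in LK WT and 67.3 to 69.8 CPM in LK MT, a log2 fold change of -0.20 ± 0.052 (adjusted p = 0.0256). Ehmt2, which encodes G9a, was at 212.6 to 226.1 CPM in WT and 197.6 to 206.3 CPM in MT and was not called (-0.07 ± 0.036, adjusted p = 0.171). Wiz and Zfp644, zinc-finger partners of this pair, fell by 0.28 and 0.30 on the log2 scale (adjusted p = 0.00937 and 0.00975). Setdb1, a methyltransferase of histone H3 lysine 9 recruited through Trim28, fell by 0.22 (adjusted p = 0.00988), and its partner Atf7ip fell by 0.64 (adjusted p = 0.011). Trim28 itself was at -0.07 and was not called (adjusted p = 0.184).

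Kdm1a, the demethylase LSD1, was at -0.07 and was not called (adjusted p = 0.162), while its corepressor partner Rcor1 fell, from 68.5 to 94.2 CPM in WT to 44.1 to 53.1 CPM in MT (-0.80 ± 0.12, adjusted p = 0.00706). Rif1, which restrains MERVL in embryonic stem cells, fell from 141.2 to 162.9 CPM to 102.6 to 114.6 CPM (-0.50 ± 0.059, adjusted p = 0.00627). Smchd1, a chromatin protein of the inactive X chromosome, fell by 0.45 (adjusted p = 0.00831). Lin28a, an RNA-binding protein, was the 1 that rose, from 7.56 to 9.10 CPM in WT to 10.2 to 16.6 CPM in MT (0.80 ± 0.18, adjusted p = 0.0169). Rcor1, Rif1 and Smchd1 kept their calls in 10 of 12 alternatives, Atf7ip and Zfp644 in 8, and Ehmt1, Setdb1, Wiz and Lin28a in 6. In these LK libraries the neutrophil markers and Malat1 moved with genotype, as given above, and their part in these gene differences was not tested.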

How the data were processed

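Libraries were made with a directional kit from 200 ng of total RNA, per the labels' protocols. Counts per gene and per TE subfamily are whole numbers as deposited by the authors. The submitters' processing notes name STAR, HTSeq, DESeq2 and mm10; versions, the TE annotation, use of strand and treatment of reads with several matches are not given in the sources used here, so subfamilies of like sequence may share reads. Groups and replicate numbers come from the labels.

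CPM are TE counts scaled to 1000000 gene counts of the library. TE counts were tested with edgeR 4.0.16 (quasi-likelihood, robust, filterByExpr, R 4.3.3), with each library scaled by its gene total times a TMM factor of the filtered genes, and Benjamini-Hochberg adjustment over all TE subfamilies. In all, 7 comparisons were fitted, each on its own libraries. The genes of the MERVL list were tested in the same way over all genes, with alternatives chosen after seeing the data. The code was tested on simulated data. Alternatives were RLE factors, TE-count scaling, no filter, no TMM factors (chosen after seeing the data), DESeq2 1.42.0, a replicate block, summed or left-out replicates, and a fit of all 19 libraries.

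Named subfamilies are MERVL-int, MT2_Mm, MT2A, MT2B, MT2C_Mm, ORR1A0, MTA_Mm and the internal parts of the last 2. Added are the 5 with the most counts per family, up to 5 called per direction and family with the largest change (20 counts in the higher group), or the 3 smallest p per direction where none was called, and up to 3 called per direction in an interaction. Members, lists and rules were chosen with earlier results of these data known. Figures were drawn with matplotlib 3.10.9.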

Additional observations from a re-analysis of the deposited data

Results flagged for a closer look

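The genotype difference varied between LK and old Cd11b cells, by the interaction test of edgeR, for 14 of the named subfamilies. The test called 12.5% of all 889 TE subfamilies and 11% of the 173 members. Some of the 14 were named because they were called in this interaction or in LK cells, so their number is partly set by the naming rule. In LK cells relative to old Cd11b cells the log2 difference was higher for LTR16E2 (1.65), LTR50 (1.05), MLT1K (0.82), MTEb-int (0.63), ORR1A0-int (0.61), ORR1A0 (0.56), MTE2a-int (0.47), ORR1A3 (0.42), MTA_Mm-int (0.39), MTA_Mm (0.33), ORR1A2 (0.31) and RMER15 (0.30). It was lower for LTR33B (-1.57) and LTR16A2 (-0.70). LTR16E2 was at 0.04 to 0.13 CPM in LK WT and 0.18 to 0.31 CPM in LK MT and did not pass the low-count filter in LK cells alone. With replicates 2 and 3 summed no member was called in this interaction.

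Among the 4 young WT libraries, replicate 4 lay far from the other replicates for 5 of the named subfamilies. It was at 89.6 CPM for ORR1A0-int, 157 CPM for MLT1E, 22.6 CPM for MLT1E3, 12.1 CPM for LTR16E1 and 3.12 CPM for MLT1A-int. Chance flags about 1 in 20 groups, and 54 values were screened. Young WT replicate 4 also had the highest summed level of both families.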

How the results depend on the processing

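In LK cells 29 members were called; the total was 18 with scaling to TE counts (15 of them among the 29), 19 with DESeq2, 1 with replicates 2 and 3 summed and 2 in the fit of all 19 libraries, and leaving out 1 library gave 5 to 48. Of the genes of the MERVL list, 18 were called in LK cells. That number became 0 with replicates 2 and 3 summed, 0 with the replicate block and 6 to 26 with 1 library left out. In old Cd11b cells, 0 became 0 to 9. These alternatives on genes, and the summing for old against young, were chosen after seeing the data. In old Cd11b cells the 1 call became 0 with replicates 2 and 3 summed and 0 in the fit of all 19 libraries, and 0 to 15 with 1 library left out. The interaction of genotype with cell type had 0 calls with replicates 2 and 3 summed and 11 to 30 with 1 library left out. The interaction with age had 1 call with scaling to TE counts and 1 without young MT replicate 3 and WT replicate 4, in place of 0. For DESeq2, summed or left-out libraries and the fit of all 19 libraries, the shares over all TE subfamilies and all genes are not given here. These totals are therefore not read as particular to the 2 families or to the gene list. The ERVL-MaLR excess in LK MT, 152.5 CPM, was 194.3 CPM with the TMM-scaled library size.

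With scaling to TE counts, these values of old against young WT changed sign: MERVL-int 0.76, MT2_Mm 0.84, MT2A 1.53, MT2B 0.34, MT2C_Mm 0.26, ORR1A0 1.06, MTA_Mm 0.55, MTA_Mm-int 1.87, RMER15 0.59, MERVL_2A-int 0.048, MTC 0.00498 and ORR1A2 0.72. So did these of LK against Cd11b WT: MT2C_Mm 0.42, ORR1A0 0.25, MTA_Mm 0.24, MTA_Mm-int 0.49, RMER15 0.0787 and MERVL_2A-int 0.20. The causes were not tested. With the replicate block LK had 24 calls, old Cd11b 1 and the cell type interaction 14. The shares over all TE subfamilies with that block are not given here. Same-numbered MT and WT libraries had correlated deviations of 0.477, 0.255 and -0.36 in young, -0.119, -0.0551 and -0.0327 in old Cd11b and -0.259, 0.0563 and -0.025 in LK cells; no set had all 3 above 0.1, so the numbers were not taken as pairs. Depth limits the rare ERVL subfamilies, with a median of 20.1 mean counts per library in LK against 178 for ERVL-MaLR.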
